A study of Mus musculus with 18 samples.

Results

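Mast cells and basophils are the blood cells that carry the high-affinity receptor for IgE and store histamine and proteases in granules. The results concern 10 genes that are widely used to recognise them, which are *Mcpt8*, *Mcpt4*, *Cma1*, *Gzmb*, *Cpa3*, *Tpsb2*, *Tpsab1*, *Fcer1a*, *Ms4a2* and *Hdc*. They are 10 of 20495 rows in the table of reprogrammed fibroblasts and 10 of 20066 genes in the table of ESC differentiation. The 10 genes were chosen by name, with earlier results of the same FPKM values in view, so that their levels and differences in these tables are given as a description, with no test.

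RNA-seq was performed on 18 samples of mouse cells of strain 129. Of these, 8 are single libraries of mouse embryonic fibroblasts (MEFs) of embryonic day 14.5, left untreated (uFIB) or reprogrammed towards blood for 12 or 21 days with Scl and Lmo2 (SL), with these and Fli1 and Gata2 (SFGL), or with Lmo2, Fli1 and Gata2 but no Scl (FGL). The other 10 samples are 2 replicates for each of 5 stages of ESCs that carry a GFP reporter in *Brachyury* (Bry) and were differentiated in culture: ESC, mesoderm (MES, sorted as Bry.GFP+ and FLK1-), hemangioblast (HB, Bry.GFP+ and FLK1+), hematopoietic progenitors (HP, CD41+) and macrophages (MAC, CD11b+). Scl is the protein encoded by *Tal1*. The MEFs were wild type or came from iTal1-2A-GFP mice, in which rtTA and a TRE-TAL1 cassette make TAL1 inducible with doxycycline, and the labels do not say which MEFs went into which library. The study's methods describe delivery of Fli1, Gata2 and Lmo2 by lentivirus, removal of MEFs with blood or endothelial surface markers by sorting, and a culture medium with blood cell cytokines, among them IL-3 and the ligand of KIT. These methods do not state that cells were sorted again before sequencing.

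The unit is FPKM, in which fragments are scaled to the length of the transcript and to the depth of the library, so that levels can be compared between genes within a table. With 1 library per condition in MEFs and 1 value per stage in which the authors had already combined the replicates, no value has a replicate error and no difference was tested. Nor was there a spread by which to say which neighbours in an order of levels differ. A difference is called here when it reaches 1 on log2(FPKM + 1), which is 2-fold with 1 FPKM added to both values and understates the change of low genes. The values are those of bulk RNA, in which fewer cells of a type and less RNA per cell cannot be told apart. The delivered factors were used to check the labels. *Tal1* had 0.0414 FPKM (uFIB), 62.0 (SL), 58.0 (SFGL) and 7.04 (FGL) at day 12, and 0.415, 347, 119 and 0.0705 at day 21. In FGL, the level of *Fli1* was 8.29 FPKM at day 12 and 3.35 FPKM at day 21, where uFIB had 3.02. *Lmo2* in FGL had 36.2 FPKM at day 12 and 66.5 at day 21, beside 0.499 and 2.28 in uFIB. *Gata2* in FGL had 21.9 and 35.1 FPKM, beside 1.80 and 2.13 in uFIB. *Lmo2* and *Gata2* thus went with the label of FGL on both days. *Tal1* at day 12 and *Fli1* at day 21 went against it, and both FGL libraries are referred to by their label only.

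Mast cells mature in tissues and basophils in bone marrow, both from progenitors of the blood system. In the mouse, connective tissue mast cells contain the chymases and tryptases encoded by *Cma1*, *Mcpt4*, *Tpsb2* and *Tpsab1* together with carboxypeptidase A3, whereas *Mcpt8* encodes a protease typical of basophils. The IgE receptor consists of an alpha chain that binds IgE (*Fcer1a*), a signalling beta chain (*Ms4a2*) and the gamma chain *Fcer1g*, and *Hdc* encodes histidine decarboxylase, the enzyme that makes histamine. Known regulators of blood genes include GATA factors, which recognise GATAA, basic helix-loop-helix factors such as SCL, which recognise CANNTG, and RUNX factors, which recognise TGTGGT.

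In the GRCm38 coordinates of the deposited table, 4 of the 10 genes lie in the protease cluster of chromosome 14, all on the minus strand: *Cma1* at chr14:55941451-55944661, *Mcpt4* at chr14:56059744-56062310, *Mcpt8* at chr14:56082164-56085197 and *Gzmb* at chr14:56258858-56262260. The tryptase genes lie on chromosome 17, *Tpsab1* at chr17:25343245-25345562 on the minus strand and *Tpsb2* at chr17:25366333-25368092 on the plus strand. *Cpa3* lies at chr3:20215616-20242181, *Ms4a2* at chr19:11615521-11623719, *Fcer1a* at chr1:173221271-173227229 and *Hdc* at chr2:126593668-126618665, all on the minus strand. GENCODE M21 places the microRNA gene *Mir6949* within *Mcpt8* and *Mir7007* within *Cpa3*, and no annotated gene overlaps any other of the 10. To see where reads could be shared with related genes, every word of 50 bases in the principal transcript (APPRIS) nearest to each locus was searched for in the transcripts of all other genes. Of the words of *Mcpt4*, 5.48% were shared, with *Cma2* and *Mcpt9*, and of those of *Cma1* 5.46%, with *Gm48934*. The other 8 genes, the neighbouring tryptases among them, shared none.

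The sequences before the transcription start are shown for 4 of the genes because these 4 cover the highest protease (*Mcpt8*), the protease of the 10 that passed 1 FPKM both in fibroblasts and in a stage (*Cpa3*) and 2 chains of the IgE receptor, and because the data below describe how far they moved together. Each line gives the 200 bases before the start from RefSeq on GRCm38.p6, 5′ to 3′ on the minus strand of the genome, with GATAA or its reverse complement TTATC in capitals. The regions are chr14:56085198-56085397 for *Mcpt8*, chr3:20242182-20242381 for *Cpa3*, chr19:11623720-11623919 for *Ms4a2* and chr1:173227230-173227429 for *Fcer1a*.
Mcpt8: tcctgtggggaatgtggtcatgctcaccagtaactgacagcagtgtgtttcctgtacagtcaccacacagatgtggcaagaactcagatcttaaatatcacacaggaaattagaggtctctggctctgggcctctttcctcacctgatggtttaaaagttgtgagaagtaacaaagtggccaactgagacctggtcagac
Cpa3: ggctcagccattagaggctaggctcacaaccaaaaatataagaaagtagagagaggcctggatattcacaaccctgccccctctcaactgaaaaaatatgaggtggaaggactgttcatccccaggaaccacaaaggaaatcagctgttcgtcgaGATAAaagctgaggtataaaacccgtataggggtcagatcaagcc
Ms4a2: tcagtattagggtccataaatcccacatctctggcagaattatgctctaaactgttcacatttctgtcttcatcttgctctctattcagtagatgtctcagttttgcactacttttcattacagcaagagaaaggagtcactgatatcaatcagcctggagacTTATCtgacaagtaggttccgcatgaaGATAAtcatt
Fcer1a: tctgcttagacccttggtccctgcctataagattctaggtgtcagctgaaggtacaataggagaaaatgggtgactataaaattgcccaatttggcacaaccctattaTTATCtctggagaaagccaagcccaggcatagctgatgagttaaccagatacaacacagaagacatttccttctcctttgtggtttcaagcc

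In these windows *Cpa3* had GATAA beginning 45 bases before the start, *Ms4a2* had GATAA 10 bases and TTATC 37 bases before it, and *Fcer1a* had TTATC 92 bases before it. In *Mcpt8* these letters were not found in this window. Of the 10 genes 8 matched the RefSeq table, and *Tpsab1* and *Tpsb2* did not. Over the 250 bases before the start on both strands, GATAA was found in 5 of the 8 and in 23.0% of the 27025 genes with a promoter in the table. CANNTG was found in 6 of the 8 and in 66.0% of all genes, and TGTGGT in 5 of the 8 and in 14.2% of all genes. *Mcpt8* had TGTGGT 188 bases before the start, its reverse complement ACCACA 139 bases before it and CANNTG at 3 places. No match overlapped a match of another of the 3 motifs. These matches describe letters and not bound sites.

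The first question was how far the 10 genes were expressed in MEFs that received Scl, and the plot by library shows each value. In SL at day 12, 8 of the 10 genes were at least 2-fold above uFIB of that day, where 8.53% of all 20495 rows were. In SFGL at day 12 the number was 9 of 10, beside 8.84% of all rows, in SL at day 21 it was 8 of 10, beside 7.17%, and in SFGL at day 21 it was 9 of 10, beside 8.45%. The genes had been chosen with these contrasts known, so nothing is read from the distance to these shares. All comparisons on a day use the same uFIB library. The same 8 genes, *Mcpt8*, *Mcpt4*, *Cpa3*, *Cma1*, *Tpsb2*, *Ms4a2*, *Hdc* and *Gzmb*, passed in all 4 SL and SFGL libraries, *Fcer1a* passed in SFGL at day 12 and *Tpsab1* in SFGL at day 21. No member was lower than in uFIB in any of these 4 comparisons. The median difference of the 10 genes was 3.48 (SL) and 4.50 (SFGL) at day 12 and 2.98 and 4.59 at day 21, beside a median over all rows of 0 in each.

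**Figure D1:**
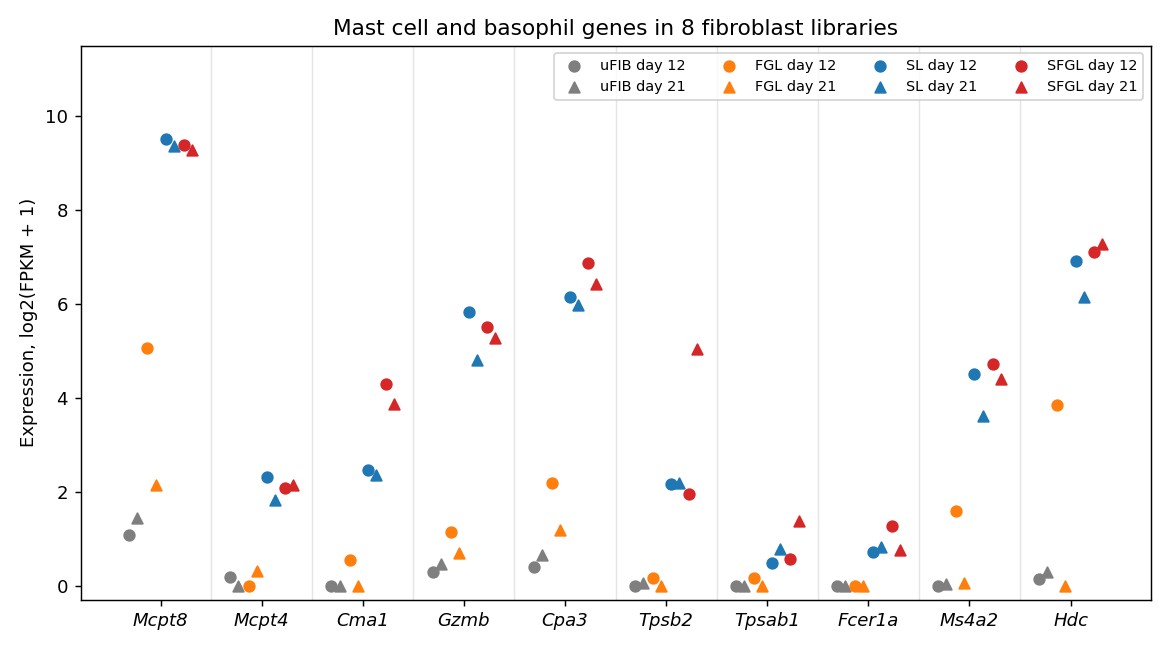
Level of the 10 genes on log2(FPKM + 1) in the 8 fibroblast libraries, with 1 point per library, colours for the treatment and circles for day 12 and triangles for day 21. The SL and SFGL points lie above both uFIB points for every gene, *Mcpt8* is the highest in both (620 to 736 FPKM), and FGL lies above uFIB at day 12 for several genes but close to it at day 21.

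*Mcpt8*, the basophil protease, was the highest of the 10 genes in all 8 fibroblast libraries. It had 1.13 FPKM (uFIB), 736 (SL), 666 (SFGL) and 32.5 (FGL) at day 12, and 1.69, 663, 620 and 3.39 at day 21. The 4 SL and SFGL libraries were thus all high and the uFIB libraries low, with FGL at day 12 in between. The FPKM in SL were 654 times those of uFIB at day 12 and 391 times at day 21, and on log2(FPKM + 1) the difference was 8.44 and 7.94. *Mcpt8* alone made up 64.0% to 78.4% of the summed FPKM of the 10 genes in SL and SFGL.

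*Hdc* ranked next to it in SL and SFGL. Its FPKM were 0.10 (uFIB), 121 (SL), 138 (SFGL) and 13.5 (FGL) at day 12, and 0.228, 70.0, 155 and 0 at day 21. SL had a lower value at day 21 than at day 12 and SFGL did not, and FGL at day 21 was listed at 0, below uFIB of the same day. The difference to uFIB was 6.79 (SL) and 6.98 (SFGL) at day 12 and 5.85 and 6.99 at day 21.

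*Cpa3* encodes carboxypeptidase A3, an exopeptidase of mast cell granules. It had 0.306 FPKM (uFIB), 70.2 (SL), 116 (SFGL) and 3.53 (FGL) at day 12, and 0.582, 62.5, 84.7 and 1.27 at day 21. SFGL was the highest and SL next on both days. *Gzmb*, which encodes granzyme B, a protease of cytotoxic lymphocytes that is also made by some mast cells and basophils, had 0.226 FPKM (uFIB), 56.3 (SL), 44.4 (SFGL) and 1.21 (FGL) at day 12, and 0.379, 26.9, 37.7 and 0.615 at day 21. *Mcpt8*, *Hdc*, *Cpa3* and *Gzmb* came in this order in all 4 SL and SFGL libraries.

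The remaining proteases were lower than these 4 genes in every SL and SFGL library. *Cma1*, the mast cell chymase, was listed at 0 in both uFIB libraries and had 4.54 FPKM (SL) and 18.5 (SFGL) at day 12, and 4.14 and 13.5 at day 21, beside 0.450 and 0 in FGL. *Mcpt4*, another chymase, had 0.139 FPKM (uFIB), 3.97 (SL), 3.26 (SFGL) and 0 (FGL) at day 12, and 0, 2.53, 3.42 and 0.238 at day 21. The 4 SL and SFGL values of *Mcpt4* thus lay close together and above all others. *Tpsb2*, a tryptase, was listed at 0 in uFIB and had 3.49 FPKM (SL), 2.89 (SFGL) and 0.111 (FGL) at day 12. At day 21 it had 0.0433 FPKM (uFIB), 3.57 (SL), 31.8 (SFGL) and 0 (FGL), so that SFGL at day 21 stood apart from the other 7 libraries. The tryptase *Tpsab1* had 0.390 FPKM (SL) and 0.488 (SFGL) at day 12 and 0.710 and 1.59 at day 21, beside 0.110 in FGL at day 12 and 0 in the other 3 libraries.

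The receptor chains differed widely in level. *Ms4a2*, the beta chain, had 0 FPKM (uFIB), 21.6 (SL), 25.4 (SFGL) and 2.02 (FGL) at day 12, and 0.0172, 11.2, 20.1 and 0.0418 at day 21. *Fcer1a*, the alpha chain that distinguishes the IgE receptor from other Fc receptors, was listed at 0 in both uFIB and both FGL libraries and had 0.639 FPKM (SL) and 1.41 (SFGL) at day 12, and 0.768 and 0.688 at day 21. It was thus detected in all 4 libraries in which *Ms4a2* exceeded 10 FPKM, at a far lower level. The gamma chain *Fcer1g*, which belongs to other Fc receptors too, had 46.7 to 170 FPKM in SL and SFGL and 0.242 and 1.36 in uFIB.

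Summed over the 10 genes, the level was 1.90 FPKM (uFIB), 1017 (SL), 1016 (SFGL) and 53.4 (FGL) at day 12, and 2.94, 845, 968 and 5.55 at day 21. This is 0.214% to 0.229% of all FPKM in SL and SFGL. Across the 8 libraries, each gene was compared with the mean of the other 9 on log2(FPKM + 1). Pearson's r was 0.839 for *Tpsb2*, 0.860 for *Tpsab1* and 0.924 to 0.994 for the other 8, with *Cpa3* and *Ms4a2* the closest to the rest. The libraries form a high and a low group, so that these values mostly describe that step.

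The second question was whether SFGL differed from SL, which differ by the delivery of Fli1 and Gata2. At day 12, 1 of the 10 genes was at least 2-fold higher in SFGL, beside 0.132% of all rows, and 0 were lower, beside 0.351%. At day 21, 3 of 10 were higher, beside 0.449% of all rows, and 0 were lower, beside 0.254%. *Cma1* was called on both days, with SFGL above SL by 1.82 at day 12 and 1.5 at day 21 on log2(FPKM + 1), or 4.08 and 3.27 times the FPKM of SL. *Tpsb2* was called at day 21, with 8.91 times the FPKM of SL and a difference of 2.84, but had a difference of -0.21 at day 12. *Hdc* was called at day 21, with a difference of 1.14, after 0.19 at day 12.

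For *Mcpt8* the difference between SFGL and SL was -0.14 and -0.10, and for the remaining genes it lay between -0.34 and 0.78 over both days. At day 21 *Cma1*, *Tpsb2* and *Hdc* were thus called higher in SFGL and the other 7 genes, the mast cell genes *Mcpt4* (0.33), *Cpa3* (0.43) and *Tpsab1* (0.60) among them, were not, as the plot of the differences shows. Of the basophil markers outside the 10 genes, *Prss34* (1.21) and *Cd200r3* (1.14) were called higher as well at day 21, so that the calls included markers of both cell types. The median over the 10 genes was 0.14 at day 12 and 0.53 at day 21, beside 0 over all rows. *Gata2*, which was delivered in SFGL and not in SL, had 68.8 FPKM (SL) and 110 (SFGL) at day 12 and 62.6 and 132 at day 21. *Fli1*, likewise delivered in SFGL and not in SL, had its lower value in SFGL on both days, against the direction of the label, with 46.7 FPKM (SL) and 41.2 (SFGL) at day 12 and 34.4 and 27.8 at day 21, beside 3.43 and 3.02 in uFIB. Eosinophil markers were also higher in SFGL than in SL, 4 of 8 at day 12 and 6 of 8 at day 21, with a sum of 1839 FPKM (SL) and 6321 (SFGL) at day 12 and 2802 and 11322 at day 21. Their part in the differences of *Cma1*, *Tpsb2* and *Hdc* was not tested.

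**Figure D2:**
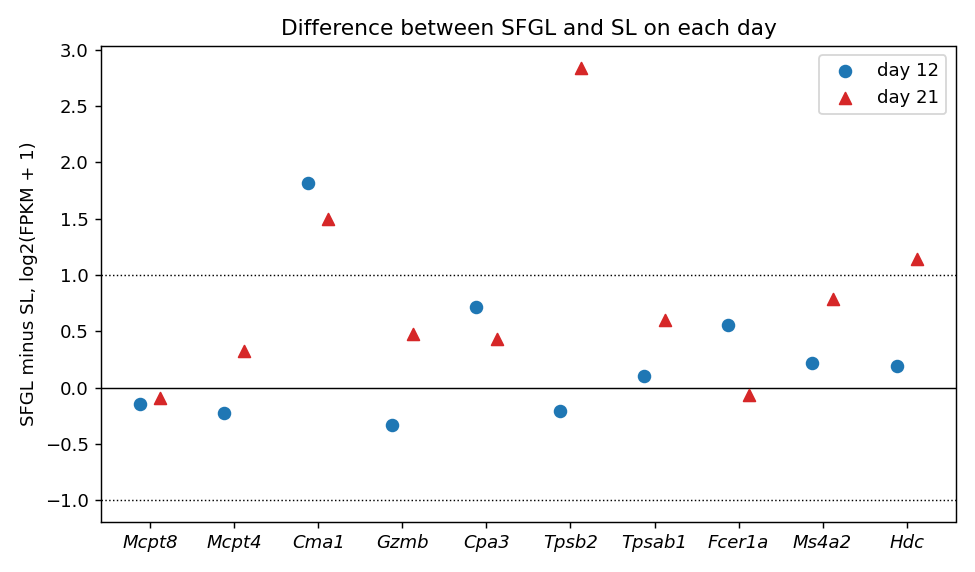
Difference between SFGL and SL for each of the 10 genes on log2(FPKM + 1), with circles for day 12 and triangles for day 21, a solid line at 0 and dotted lines at 1 and -1. *Cma1* lies above the upper dotted line on both days, *Tpsb2* (2.84) and *Hdc* (1.14) at day 21, and *Mcpt8* stays near 0.

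Between day 12 and day 21, 0 of the 10 genes rose at least 2-fold in SL, beside 1.03% of all rows, and 1 fell, beside 1.72%. This was *Gzmb*, which fell by 1.04 on the log2 scale. The median over rows whose mean reached 1 FPKM fell by 0.10 between these libraries, and by 0.01 after both were scaled to the same upper quartile, under which *Gzmb* no longer passed (-0.94). In SFGL 1 gene rose, *Tpsb2* by 3.08, to 11.0 times its FPKM at day 12, beside 1.27% of all rows, and 0 fell, beside 1.59%. *Mcpt8* differed between the days by -0.15 in SL and -0.10 in SFGL.

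In the libraries labelled FGL the genes were lower. At day 12, 4 of 10 were at least 2-fold above uFIB, beside 1.72% of all rows, and these were *Mcpt8* (difference 3.98), *Hdc* (3.72), *Cpa3* (1.79) and *Ms4a2* (1.60). At day 21, 0 of 10 were, beside 0.273% of all rows. Between these days 0 rose, beside 1.90% of all rows, and 3 fell, beside 2.39%, with *Hdc* falling by 3.85, *Mcpt8* by 2.93 and *Ms4a2* by 1.54. *Cpa3*, with a difference of -0.998, was just short of the limit of 1.

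As a share of SL at day 12, FGL had 4.42% of *Mcpt8*, 5.03% of *Cpa3*, 2.15% of *Gzmb*, 9.36% of *Ms4a2* and 11.2% of *Hdc*. The median of these 5 genes, those with at least 10 FPKM in SL at day 12, was 5.03%. For genes of other lists with the same level it was 9.45% over 5 pan-blood markers, 8.96% over 9 neutrophil markers, 25.2% over 7 red cell and megakaryocyte markers and 40.0% over 6 eosinophil markers. The limit of 10 FPKM was set on SL, by which the shares are divided, so nothing is read from the order of these medians. The members below that limit had 9.91% (*Cma1*), 28.3% (*Tpsab1*), 3.18% (*Tpsb2*) and 0% (*Mcpt4* and *Fcer1a*). The 10 fibroblast markers in FGL had 202% to 491% of their FPKM in SL, and 0 of them were called between FGL and uFIB on either day. *Tal1* in FGL at day 12 was 11.3% of its FPKM in SL. The part of these markers and of *Tal1* in the values of the 10 genes was not tested.

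The label of the 10 genes as mast cell and basophil genes was checked against markers of both cell types, some of which are among the 10. Of 3 basophil markers, *Mcpt8* and *Prss34* were at least 2-fold above uFIB in all 4 SL and SFGL libraries. *Prss34*, a basophil protease that is not among the 10 genes, had 159 FPKM (SL) and 267 (SFGL) at day 12 and 117 and 272 at day 21, beside 18.0 in FGL at day 12 and at most 0.184 in the other 3 libraries. *Cd200r3*, a surface receptor of basophils and mast cells, had 0.988 to 3.38 FPKM in SL and SFGL and 0 in uFIB. Of 8 mast cell markers 5 were at least 2-fold above uFIB in all 4 libraries, *Cpa3*, *Tpsb2*, *Cma1* and *Mcpt4* with the values above and *Kit*, and *Tpsab1* was so in SFGL at day 21 alone. *Kit*, the receptor for stem cell factor, had 10.6 FPKM (SL) and 14.1 (SFGL) at day 12 and 5.38 and 4.81 at day 21, beside 0.429 and 0.423 in uFIB. It is not particular to mast cells in these data, with 16.9 FPKM in HP, where 0 of the 10 genes reached 1 FPKM. *Mrgprb1* and *Mrgprb2*, receptors of mature connective tissue mast cells, were listed at 0 in all 8 libraries. Genes of both cell types were thus present, with *Mcpt8* and *Prss34* above each of the 8 mast cell markers in all 4 libraries, and no cell type is assigned from bulk values. In HP and MAC the label did not hold as a whole, as described with the stages.

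Other genes of granules and related pathways were counted in lists that were chosen with earlier results known. These lists are not limited to genes particular to mast cells and basophils. A gene was counted as raised when it was at least 2-fold above uFIB in SL and in SFGL on both days, which 5.53% of all rows were and 8 of the 10 genes. Of the other granule proteases, 6 of 14 met this. *Ctsg*, which encodes cathepsin G and lies next to *Mcpt8*, had 345 to 509 FPKM in SL and SFGL, beside 0.0687 and 2.40 in uFIB. *Gzme* had 5.91 to 24.6 FPKM there but 2.52 and 2.40 in uFIB.

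Of 17 receptors and surface proteins 8 met the limit and 0 were lower in all 4 libraries. *Csf2rb*, the common beta chain of the receptors for IL-3, IL-5 and GM-CSF, had 177 to 315 FPKM in SL and SFGL and 0.132 and 0.853 in uFIB, and *Csf2rb2*, the beta chain specific for IL-3, had 77.2 to 191 beside 0.0988 and 0.104. *Cd63*, a granule membrane protein used as a marker of degranulation, had 621 to 1038 FPKM in all 8 libraries, uFIB included. Of 13 genes that signal below the IgE receptor 10 were raised, with the kinase *Syk* at 26.8 to 48.8 FPKM, the phospholipase *Plcg2* at 24.5 to 46.2 and the adaptor *Lcp2* at 20.2 to 37.5. All 3 genes also serve other receptors of blood cells.

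Of 14 genes for granules and lipid mediators 8 were raised and 1, *Ltc4s*, was lower in all 4 libraries. *Ltc4s*, which encodes leukotriene C4 synthase, had 26.4 FPKM (uFIB), 12.4 (SL) and 8.73 (SFGL) at day 12 and 19.8, 6.86 and 5.37 at day 21. *Srgn*, the proteoglycan core on which granule proteases are stored, had 10.6 FPKM (uFIB), 1381 (SL), 2226 (SFGL) and 137 (FGL) at day 12 and 73.4, 856, 1515 and 72.9 at day 21. *Alox5* and *Alox5ap*, the enzyme and the helper protein that start leukotriene synthesis, had 95.2 to 154 and 142 to 324 FPKM in SL and SFGL. Of 12 cytokines 4 were raised, among them *Il4*, the typical basophil cytokine, with 2.71 to 3.60 FPKM in SL and SFGL and 0 in uFIB, and *Ccl3*, with 38.9 to 67.8 FPKM. The other raised genes were *Il6*, with 11.0 to 23.4 FPKM beside 3.60 and 3.72 in uFIB, and *Tnf*, with 2.79 to 12.8 FPKM. The highest cytokines, *Ccl2* and *Ccl7*, were not raised. *Ccl2* had 100 FPKM (uFIB), 63.6 (SL), 63.1 (SFGL) and 146 (FGL) at day 12, and 50.9, 84.9, 67.1 and 54.1 at day 21. *Ccl7* had 62.3, 42.2, 48.7 and 75.5 FPKM at day 12, and 35.1, 62.0, 66.1 and 30.8 at day 21.

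Of 15 transcription factors of these lineages 6 were raised in all 4 libraries. *Gata1*, which acts in mast cells, basophils, eosinophils and red cells, had 19.9 FPKM (SL) and 23.4 (SFGL) at day 12 and 29.9 and 49.5 at day 21, beside 0 and 0.0225 in uFIB. PU.1, listed under the older symbol *Sfpi1* for *Spi1*, had 156 and 171 FPKM at day 12 and 81.6 and 102 at day 21, beside 0.0485 and 0.712. *Gata2*, one of the delivered factors, was raised as well, together with *Zfpm1*, *Ikzf1* and *Id2*. *Mitf*, a factor required for mast cell development, was not raised: it had 8.21 FPKM (uFIB), 4.10 (SL) and 4.0 (SFGL) at day 12 and 3.16, 2.86 and 3.06 at day 21. *Cebpa*, a factor of basophils and other granulocytes, had 60.7 FPKM (uFIB), 45.9 (SL) and 35.7 (SFGL) at day 12 and 78.8, 27.4 and 26.0 at day 21. *Cebpb*, *Runx1*, *Stat5a*, *Stat5b*, *Hes1*, *Nfil3* and *Irf8* did not meet the limit of a rise in all 4 libraries.

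**Figure D3:**
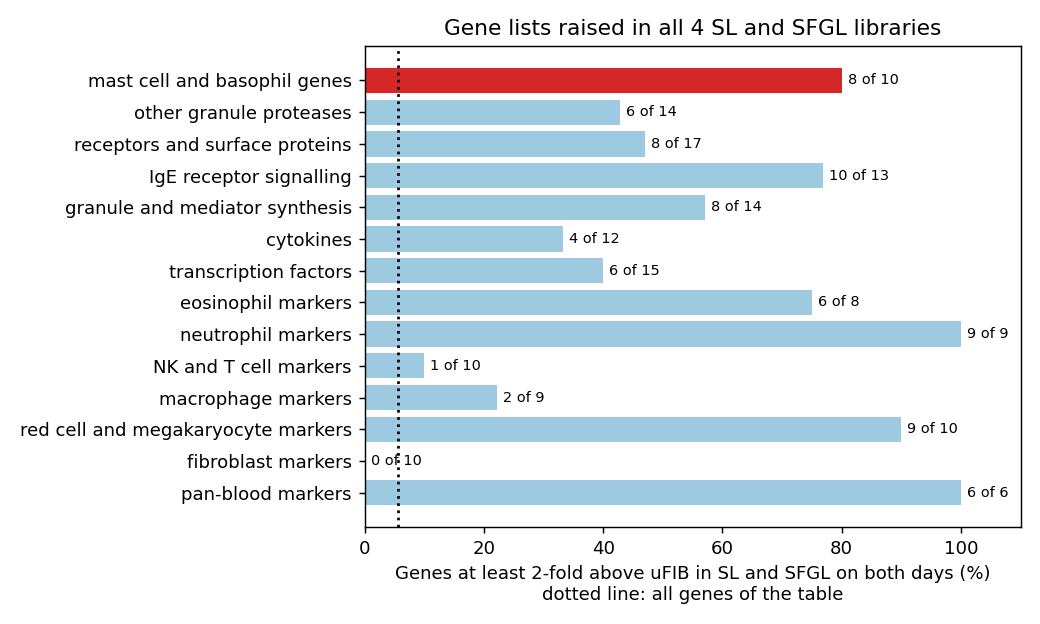
Share of the genes of each list that were at least 2-fold above uFIB on log2(FPKM + 1) in SL and in SFGL on both days, with the number of genes beside each bar and a dotted line at the share of all rows (5.53%). The mast cell and basophil genes reach 8 of 10, the pan-blood and neutrophil markers reach 6 of 6 and 9 of 9, and the fibroblast markers 0 of 10.

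Markers of other cells moved with the 10 genes. All 9 neutrophil markers were raised, with a sum of 56.7 FPKM (uFIB), 37512 (SL), 22072 (SFGL) and 3315 (FGL) at day 12 and 361, 16182, 9785 and 133 at day 21. Of 8 eosinophil markers 6 were raised, with a sum of 4.07 and 4.90 FPKM in uFIB, 1839 to 11322 in SL and SFGL, 691 in FGL at day 12 and 6.85 in FGL at day 21. Of 10 red cell and megakaryocyte markers 9 were raised, with 988 to 1651 FPKM in SL and SFGL and 31.7 and 35.8 in uFIB. Most of the uFIB sum came from 1 row that combines *Gp1bb* with the gene *Sept5*, with 34.3 FPKM at day 12 and 29.5 at day 21. No neutrophil, eosinophil or red cell and megakaryocyte marker was at 0 in any SL or SFGL library. All 6 pan-blood markers were raised, with 441 to 1074 FPKM in SL and SFGL and 1.44 and 5.30 in uFIB. Several of the 10 genes, such as *Gzmb* and *Hdc*, can be expressed by other blood cells too, and the part of these cells in the values was not tested.

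Lymphocyte markers are given because *Gzmb* is also a gene of cytotoxic lymphocytes, whose part in its values was not tested. Of 10 NK and T cell markers 1 was raised, *Nkg7*, with 16.6 to 61.9 FPKM in SL and SFGL, and the sum was 17.6 to 64.7 FPKM there and 0.183 and 0.215 in uFIB. *Cd3g*, a chain of the T cell receptor complex, had 1.63 FPKM (SL) and 0.943 (SFGL) at day 12 and 0.441 and 0.0863 at day 21. *Prf1*, which encodes perforin, had 1.45 and 1.69 FPKM at day 12 and 0.438 and 0.571 at day 21, and both genes were at 0 in uFIB. With *Nkg7*, 3 of 10 were thus called in SL and 2 of 10 in SFGL at day 12, and 1 of 10 in each at day 21. *Klrb1c*, *Cd8a* and *Eomes* had at most 0.215 FPKM in any library. The markers *Cd3e* and *Ncr1* and the granzymes *Gzma* and *Gzmk* were listed at 0 in all 8 libraries. Of 9 macrophage markers 2 were raised, *Emr1* and *Cd68*, with a sum of 17.8 to 39.4 FPKM in SL and SFGL and 3.85 and 3.91 in uFIB, and *C1qa*, a complement gene of tissue macrophages, was at 0 in these 4 libraries.

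Within the protease cluster on chromosome 14, 15 protease genes chosen by name lie in 320.8 kb, 12 of them on the minus strand. The cluster was looked at because 4 of the 10 genes lie in it, after the values were seen. The highest levels in SL at day 12 were those of the neighbours *Mcpt8* (736 FPKM) and *Ctsg* (378), whose loci end 17.4 kb apart, and of *Gzmb* (56.3), 177.1 kb away at the end of the cluster. Between them, *Gzmf* was at 0 in all 8 libraries, *Gzmg* had at most 0.0497 FPKM and *Gzmn* at most 0.280. *Mcpt9* and *Cma2*, which share words of 50 bases with *Mcpt4*, had at most 0.0785 and 0.486 FPKM. The other genes had intermediate levels. Nearer to *Ctsg*, *Gzme* had 11.1 FPKM (SL) and 5.91 (SFGL) at day 12 and *Gzmd* 0.670 and 0, and next to *Gzmb*, *Gzmc* had 4.52 and 3.44. On the other side of *Mcpt8*, *Mcpt1*, *Mcpt2*, *Mcpt4* and *Cma1* had 1.83 to 18.5 FPKM in SL and SFGL at day 12, as the plot by distance shows.

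**Figure D4:**
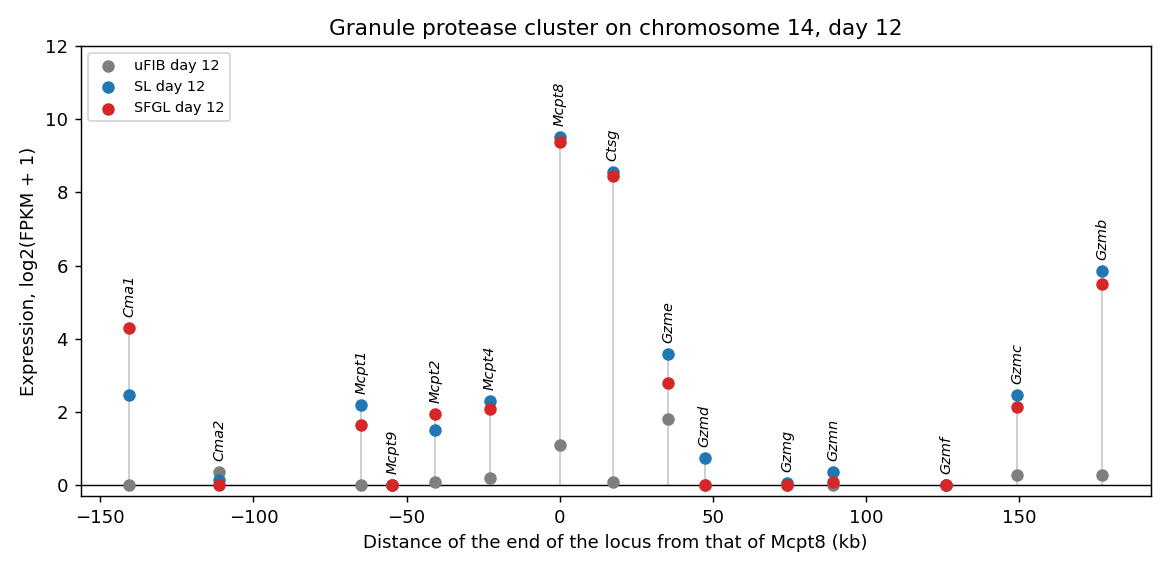
Level on log2(FPKM + 1) of the 15 chosen protease genes of the cluster at day 12 in uFIB, SL and SFGL, by the distance in kb between the end of each locus and that of *Mcpt8*, with grey lines from 0 to the highest of the 3 points. *Mcpt8* and its neighbour *Ctsg* are the highest, *Gzmb* at the right end is next, and *Gzmf* and *Gzmg* between them lie at or near 0.

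The genes most alike to the mean of the 10 over the 8 libraries, among genes that reach 10 FPKM in a library, were *Ston2* (Pearson's r of 0.999), *P2ry1*, *Diap1*, *Galnt6*, *Dapp1*, *Unc13d*, *Chst13* and *Svip* (0.997). *Unc13d*, which encodes a protein of granule release, had 0.174 FPKM (uFIB), 14.4 (SL), 23.5 (SFGL) and 1.87 (FGL) at day 12 and 0.0912, 13.6, 24.8 and 0.123 at day 21. The libraries share their high and low groups, and 20.4% of the 7891 genes compared had an r of at least 0.9, so that a high r is common here.

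The third question was when the 10 genes appear on the way from ESCs to macrophages. They were almost absent. From ESC to MES, from MES to HB and from HB to HP, 0 of the 10 genes changed at least 2-fold in either direction. The shares of all genes were 3.67% higher and 3.86% lower in MES, 1.29% and 1.68% in HB, and 4.64% and 4.60% in HP. Between HB and HP the paper places a stage of hemogenic endothelium. It has no sample here, so a change limited to that stage would not be seen. From HP to MAC 2 of the 10 genes were higher, beside 18.0% of all genes, and 0 were lower, beside 7.47%. The number of higher genes was thus close to the share of all genes, and nothing is read from it. The sum of the 10 genes was 0.388 FPKM (ESC), 0.132 (MES), 0.0980 (HB), 0.772 (HP) and 22.0 (MAC).

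In MAC, *Cpa3* accounted for most of this sum. It was listed at 0 in ESC, MES and HB and had 0.248 FPKM in HP and 18.7 in MAC, a difference of 3.98 between the last stages. *Hdc* had 0.388 FPKM (ESC), 0.113 (MES), 0.0906 (HB), 0.510 (HP) and 2.16 (MAC), a difference of 1.07 between the last stages. Between HP and MAC, genes whose mean reached 1 FPKM had a median difference of 0.46, which became -0.17 when both stages were set to the same upper quartile, so that *Cpa3* lay far beyond it and *Hdc* much less so. Under that scaling *Hdc* no longer passed (0.64). The corresponding medians were 0.13 before and -0.0034 after scaling between MES and HB, and -0.13 and -0.06 between HB and HP.

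The other 8 genes stayed at or below 0.395 FPKM in every stage. In MAC, *Gzmb* had 0.395 FPKM, *Mcpt8* 0.225, *Cma1* and *Ms4a2* 0.193 each and *Fcer1a* 0.0624. *Mcpt4* was above 0 in HP only (0.0102 FPKM), *Tpsab1* in HB only (0.00743), and *Tpsb2* was listed at 0 in all 5 stages. *Prss34* and *Ctsg*, high beside *Mcpt8* in SL and SFGL, were at 0 in all 5 stages. *Cd200r3*, the other basophil marker outside the 10 genes, had 0.408 FPKM in HP and 7.67 in MAC. The label thus held in MAC for *Cpa3* alone among the proteases, beside 1120 FPKM of pan-blood markers and 2032 FPKM of macrophage markers, and in HP, with 87.4 FPKM of pan-blood markers and *Kit* at 16.9 FPKM, for none of the 10 genes at 1 FPKM or more. Of the eosinophil markers 4 of 8 were higher in MAC than in HP, with a sum of 44.0 FPKM beside 0.0538. The part of other cells in the MAC values was not tested.

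**Figure D5:**
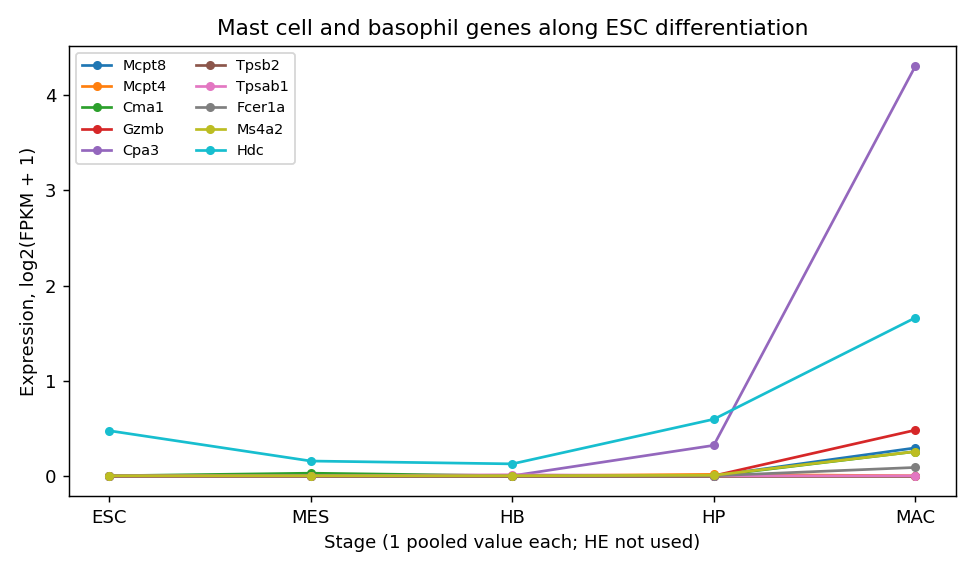
Level of the 10 genes on log2(FPKM + 1) in the 5 stages from ESC to MAC, with 1 value per stage in which the replicates are combined and lines that join the values of a gene. *Cpa3* rises from 0.248 FPKM in HP to 18.7 in MAC, *Hdc* reaches 2.16, and the other 8 genes stay near 0.

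Over the 5 stages the genes most alike to the mean of the 10 were *Isoc2b*, *Clec2d*, *Selplg*, *Cndp2*, *Rhbdd1*, *Lat2*, *Malt1* and *Pik3r5*, with r between 0.9995 and 0.9999. All 8 were highest in MAC, as was the mean that *Cpa3* and *Hdc* dominate, and 30.8% of 7014 genes had an r of at least 0.9. *Lat2*, an adaptor below the IgE receptor, had 0.495 FPKM in HP and 36.0 in MAC. *Selplg*, which encodes a selectin ligand of leukocytes, had 0.343 FPKM in HP and 20.9 in MAC. The 2 tables were normalized separately, so levels in stages and fibroblasts are given side by side and were not compared.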

How the data were processed

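Expression was taken from 2 tables of FPKM deposited by the authors. For the stages, the authors aligned reads with SHRiMP to mm10 (GRCm38), kept unique reads and, after duplicate removal by Picard, obtained values with Cufflinks, 1 value per transcription start site and stage from both replicates. Per the labels' processing notes, the fibroblast reads were processed with TopHat and Cufflinks on mm10. Versions are not given in the sources used here. Duplicate removal limits high values, and unique alignment lowers genes with close copies. The stage table has 1 column for a stage with no sample here, which was not used.

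Values of 22089 start sites were summed per gene. Comparisons used log2(FPKM + 1) within a table and a limit of 1 (2-fold). With 1 library per condition and pooled stage values there was no test. Read numbers are hidden in FPKM. Steps of values under 0.3 FPKM gave a relative depth of 0.587 to 1.56 times that of uFIB at day 12, but 15.0% to 19.0% of low genes shared that step, so values were mostly not whole reads and no counting interval is given.

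The members, lists and rules were chosen with earlier results of these data known. Besides the members, the text names the 8 genes most alike to them in each table and all transcription factors of the list. It also names markers fixed for both cell types and the delivered factors. The 3 highest genes are named for some lists only. Genes that passed on both days are named in lists with up to 4 of them. *Fcer1g*, *Ltc4s*, *Cd3g*, *Prf1*, *Klrb1c*, *Cd8a*, *Eomes*, *Cd3e*, *Ncr1*, *Gzma*, *Gzmk*, *C1qa*, *Gp1bb* and further genes of the chromosome 14 cluster were named after their values were seen. Locus starts are 0-based in the table and 1 was added; 9950 of 20726 starts then matched GENCODE M21. Counting was tested on simulated data. Alternatives were pseudocounts of 0.1 and 0.001 with at least 1 FPKM, a limit of 4-fold, at least 5 FPKM in the higher group, the same upper quartile, and a reference averaged over both uFIB libraries. Python 3.11.15, NumPy 2.4.6, pandas 2.3.3 and matplotlib 3.10.9 were used.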

Additional observations from a re-analysis of the deposited data

Results flagged for a closer look

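In 2 cases a difference called on 1 day had the opposite sign on the other day. Smaller differences that were called on neither day changed sign as well. Examples are SFGL minus SL for *Mcpt4* (-0.22 at day 12 and 0.33 at day 21) and *Gzmb* (-0.34 and 0.47). *Hdc* in the library labelled FGL was above uFIB by 3.72 on log2(FPKM + 1) at day 12 (13.5 against 0.10 FPKM) and had a difference of -0.30 at day 21 (0 against 0.228 FPKM). *Tpsb2* had a difference between SFGL and SL of -0.21 at day 12 (2.89 against 3.49 FPKM) and of 2.84 at day 21 (31.8 against 3.57 FPKM). With 1 library per condition and day, no difference between days was tested.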

How the results depend on the processing

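Of 81 counts under the alternatives 64 stayed within 1.5 times the value given above, and 17 did not. With a limit of 4-fold, FGL against uFIB at day 12 had 2 genes, SFGL against SL had 0 at day 12 and 1 at day 21, SL had 0 from day 12 to day 21, and MAC against HP had 1. With at least 5 FPKM in the higher group, SL against uFIB had 5 genes on each day, FGL against uFIB had 2 at day 12, and MAC against HP had 1. With a pseudocount of 0.1, FGL against uFIB at day 21 had 1 gene, SFGL against SL at day 12 had 2 and SFGL between days had 2; with 0.001 these were 2, 2 and 3. For these counts the alternatives differ by construction in how they treat low values. Of 49 called differences, none reversed under the pseudocounts, the same upper quartile or the mean of both uFIB libraries, and 2 (*Gzmb* in SL between days and *Hdc* from HP to MAC) fell below the limit with the same upper quartile. Leaving out a replicate was not possible with 1 value per condition. No paired analysis was possible because the replicates of a stage are combined in 1 value and each fibroblast condition has 1 library.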
